A study of Mus musculus with 8 samples.

Results

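The nuclear genes for subunits of the oxidative phosphorylation machinery were examined complex by complex in sorted mouse hepatic stellate cells, which lie along the liver sinusoids and store vitamin A. Members were taken by gene symbol (Nduf followed by a, b, c, s or v and a digit, Sdha to Sdhd, Uqcr, Cox4 to Cox8 followed by a letter, and Atp5), a rule that uses no measured value. This gave 81 of the 19938 genes measured by a probe set with a single symbol, with 35 members in complex I, 4 in complex II, 8 in complex III, 17 in complex IV and 17 in complex V. The quiescent group held 4 arrays of cells from untreated male Balb/c mice. The reverted group held 4 arrays of cells from male Balb/c mice given 4 injections of carbon tetrachloride (CCl4, a liver toxin) at 0.5 µl per g body weight, 2 per week, followed by 45 days of rest. The age was 18 weeks in the statement on both groups, while the statement on the reverted group gave 16 weeks. Cells of both groups were enriched on a density gradient, sorted by retinoid autofluorescence and lysed at once, a sort that takes cells by their retinoid content. No label says whether an array holds 1 mouse or a pool, and p-values therefore measure only the spread between these preparations, which may be technical. In such bulk preparations, fewer cells of a type and less RNA per cell cannot be told apart.

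Oxidative phosphorylation couples the oxidation of NADH and succinate to the synthesis of ATP in the inner mitochondrial membrane. Complexes I and II pass electrons to ubiquinone, complex III passes them on to cytochrome c, complex IV reduces oxygen to water, and complex V uses the resulting proton gradient to make ATP. Complexes I, III, IV and V are assembled from subunits of the nuclear and the mitochondrial genome, and complex II from nuclear subunits alone. Activation of stellate cells into matrix-producing myofibroblasts is an energy-demanding change of state, and the comparison asks whether cells that had passed through injury and recovery differ from unexposed cells in this machinery.

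All 12 stellate markers checked (Lrat, Des, Reln, Rgs5, Pdgfrb, Hgf, Ngfr, Hand2, Lhx2, Ecm1, Colec11 and Gfap) were measured, and 11 of them had a mean log2 level of 12.36 or more in each group. Gfap fell in reverted cells (log2 change -0.49, adjusted p = 0.0182 in limma), and the other 11 were not called. All 12 had a lower mean in reverted cells, with array means of 13.15 to 13.23 against 13.25 to 13.31, but the count lower was 9 after quantile normalization and 8 after centring on array medians. Array medians over all probe sets lay between 7.66 and 7.74 on the log2 scale. Of 15 hepatocyte markers 14 had a higher mean in reverted cells, Hp rose (log2 change 0.80, adjusted p = 0.0373) and Trf fell (-0.27, adjusted p = 0.04). Their array means ran from 8.35 to 9.27 in the quiescent and from 9.02 to 9.45 in the reverted group. Hepatocytes are rich in mitochondria. With the hepatocyte marker mean of each array as a covariate 55 of 81 members (67.9%) had a higher mean, against 46.5% of all genes. In that fit 0 members were called, as without the covariate, and 48 of all genes, against 142 without it. The covariate itself differed between the groups (means 8.78 and 9.22), so this fit cannot separate the group from the hepatocyte signal. The 9 markers of sinusoidal endothelium had array means from 8.41 to 8.72 and from 8.51 to 9.02. A higher mean in reverted cells was found in 7 and a lower one in 2 (median log2 change 0.21). None was called here, and 1 was called after centring on array medians. Clec4g had the smallest p of this list (log2 change 0.50, adjusted p = 0.063 in limma), with separate groups. Wt1, from the list of mesothelium and portal fibroblasts, rose (log2 change 1.39, adjusted p = 0.00801). The other 7 genes of that list had a lower mean in reverted cells and were not called. Averaged over each list, markers of Kupffer cells and lymphocytes had array means between 6.54 and 7.08, and those of cholangiocytes between 6.88 and 7.12. Single markers departed from these averages. Cd3e of the lymphocyte list had means of 10.51 and 10.78. Lyz2 of the Kupffer cell list had a log2 change of 0.59 (adjusted p = 0.129 in limma), with separate groups. In these lists 5 of 10 Kupffer cell markers and 2 of 6 lymphocyte markers had a higher mean.

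No subunit gene passed the test between the groups. Of the 81 members, 0 rose and 0 fell at an adjusted p under 0.05 in limma, a moderated test fitted over all genes, against 0.712% of all genes called (142 of 19938), of which 0.527% rose and 0.186% fell. At an unadjusted p under 0.05, 12 members (14.8%) were counted, 9 higher and 3 lower in reverted cells, against 16.0% of all genes, 8.56% higher and 7.4% lower. In 4 members (4.94%) the groups did not overlap, against 8.73% of all genes: 3 members lay above (4.64% of all genes) and 1 below (4.09%). By direction, at the unadjusted p the members' share lay above that of all genes for higher means and below it for lower means. Over both directions the shares of both counts lay below the background, but for the unadjusted p this turned with the arrays used. The share was 23.5% of members against 16.0% of all genes without quiescent array 3, and 21.0% against 13.5% without reverted array 2. With array weights it was 23.5% against 22.8%. Under every other alternative run the members' share over both directions lay below that of all genes. The members' adjusted p ran from 0.188 to 0.986 and their log2 changes from -0.27 to 0.22.

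Within the spread between these preparations, the arrays nevertheless bounded the changes closely. The 95% interval of every member, taken one at a time and from the limma fit, lay inside a 1.5-fold change in either direction (81 of 81), and that of 74 members lay inside 1.25-fold. The half-width of the interval had a median of 0.13 on the log2 scale, with a range of 0.08 to 0.24. The 7 members with wider bounds were Ndufa1, Ndufa6, Ndufa9, Uqcrfs1, Cox6a2, Atp5e and Atp5g2. The highest upper bound was 1.34-fold (Ndufa1, which is an accessory subunit of the membrane arm of complex I) and the lowest bound was 0.712-fold (Cox6a2). These bounds hold on the scale of the deposited values, on which changes of dim or very bright probe sets can be compressed. Like the p-values, they rest on a spread that may be technical, and need not bound a difference between mice. They come from the fit without a covariate. The log2 change of Cox6a2 was -0.312 after quantile normalization, -0.25 after centring and -0.337 with the hepatocyte covariate.

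**Figure D1:**
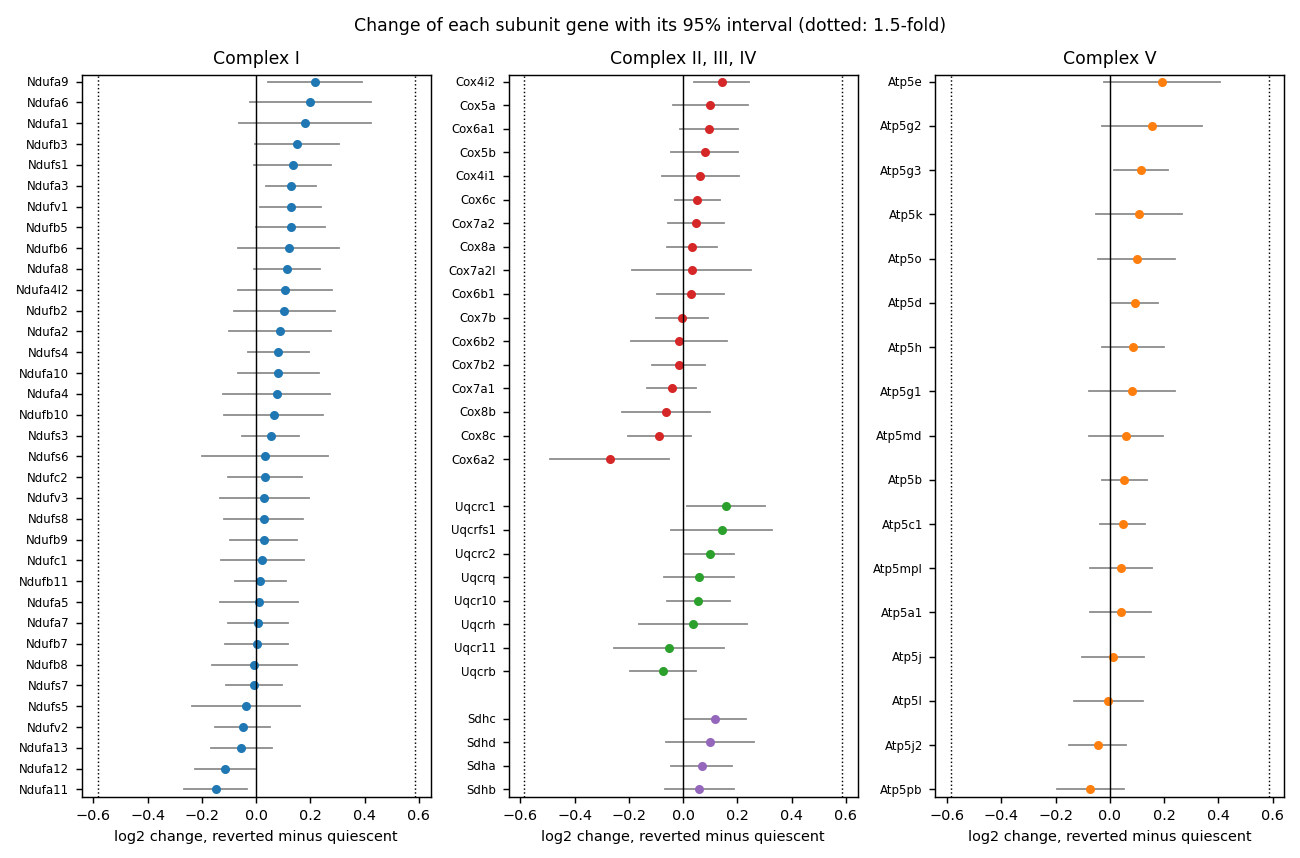
Log2 change (reverted minus quiescent, horizontal axis) of each of the 81 subunit genes, with its 95% interval from limma as a grey line, by complex; 4 arrays per group. All intervals lie between the dotted lines that mark a 1.5-fold change, and Cox6a2 has the most negative value, -0.27.

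Most members lay slightly higher in reverted cells. A higher mean was found in 62 of 81 members (76.5%) and the median log2 change was 0.05, against 46.4% and -0.01 over all genes. In signal, 75 of 81 members lay above the median of all genes, and of the 9969 genes above that level 64.1% had a higher mean, with a median log2 change of 0.03. With the deposited values renormalized by quantiles the members' share was 69.1% and their median 0.023, and with arrays centred on their medians 84.0% and 0.075. By complex, a higher mean was found in 28 of 35 members of complex I (median log2 change 0.05), 4 of 4 of complex II (0.08), 6 of 8 of complex III (0.06), 10 of 17 of complex IV (0.03) and 14 of 17 of complex V (0.06). After quantile normalization these counts were 22, 4, 6, 11 and 13, and after centring 30, 4, 6, 13 and 15. Single arrays moved several of these medians. Without quiescent array 1 the median was 0.031 over all members (54 of 81 higher), 0.022 in complex I, 0.031 in complex III and 0.014 in complex IV. In complex III it was 0.029 without reverted array 3 and 0.1 without quiescent array 4, and in complex IV 0.017 without reverted array 1 and 0.055 without reverted array 2. On the same scale the SD of a single member between arrays of a group had a median of 0.08. Means over members had SDs, in quiescent and reverted arrays, of 0.054 and 0.049 for all members. They were 0.074 and 0.052 for complex I, and 0.022 and 0.038 for complex IV.

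Among sequence features that the choice of members did not use, the promoters of 66 members were found in the RefSeq table (GRCm38.p6, 250 bases before to 50 after the start), in 71 windows. Nuclear respiratory factor 1 (NRF1), ETS factors such as GABP, and YY1 are known regulators of respiratory genes, and their core letters were searched on both strands. The NRF1 letters (GCGCA followed directly by its reverse complement) occurred in 7.04% of the member windows and in 0.971% of all 32851 windows. The ETS letters CCGGAAG occurred in 23.9% and 8.86%, the YY1 letters AAGATGG in 14.1% and 6.34%, and the TATA box letters TATAAA in 12.7% and 13.6%. Among the 19116 windows of measured genes the shares were 1.45% (NRF1), 12.1% (ETS), 6.23% (YY1) and 11.5% (TATA). The member windows had a median G and C content of 57.3%, against 52.7% in all windows. The 17 members with the ETS letters had a median log2 change of 0.05, as did the 49 without them. A higher mean in reverted cells was found in 15 of the 17 and in 35 of the 49, a difference that was not tested. A match is a description of the letters only.

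The NRF1 letters were found for Ndufa11, Uqcrc1, Cox6a1, Atp5g2 and Atp5k, members of 4 different complexes. Their log2 changes were -0.15 (Ndufa11), 0.16 (Uqcrc1), 0.09 (Cox6a1), 0.16 (Atp5g2) and 0.11 (Atp5k). The windows are shown for the 4 genes in which the letters lie before the start, 5′ to 3′ on the strand of the gene with the NRF1 letters in capitals, and the site of Uqcrc1 lies after the start. The positions are chr17:56717677-56717736 (plus strand) for Ndufa11, chr5:115349086-115349145 (minus strand) for Cox6a1, chr15:102671055-102671114 (minus strand) for Atp5g2 and chr5:108434415-108434474 (minus strand) for Atp5k. The first capital lies 60, 162, 42 and 50 bases before the start, in that order.
Ndufa11: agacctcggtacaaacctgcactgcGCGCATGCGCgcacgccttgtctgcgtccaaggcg
Cox6a1: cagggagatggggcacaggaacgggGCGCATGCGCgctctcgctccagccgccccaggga
Atp5g2: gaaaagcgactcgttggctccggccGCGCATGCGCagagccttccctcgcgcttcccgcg
Atp5k: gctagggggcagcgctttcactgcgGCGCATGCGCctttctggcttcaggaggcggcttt

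The range between preparations of one group was wider than the difference between the groups. To compare arrays, each gene's mean over the 8 arrays was subtracted and the deviations were averaged over the members. This mean deviation was -0.08, -0.06, 0.03 and 0.02 in quiescent arrays 1 to 4 and 0.05, -0.05, 0.05 and 0.04 in reverted arrays 1 to 4. Quiescent arrays 1 and 2 and reverted array 2 were low, the other 5 arrays were high, and the groups overlapped. The group means differed by 0.05, while the SD between arrays was 0.05 in each group. Reverted array 2 held the lowest value of its group in 56 of 81 members, and quiescent array 1 in 44 of 81. Quiescent array 3 held the highest value of its group in 42 members and reverted array 1 in 35.

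The same arrays stood lowest in each of the complexes. In complex I the mean deviation was -0.09 in quiescent array 1, -0.09 in quiescent array 2 and -0.05 in reverted array 2, and between 0.03 and 0.06 in the other 5 arrays. In complex V it was -0.10, -0.05 and -0.05 in these 3 arrays, and between -0.001 and 0.076 in the others. Complex II ran from -0.12 in quiescent array 1 to 0.10 in reverted array 1, and complex III from -0.09 in quiescent array 1 to 0.09 in reverted array 3. Complex IV spread least, from -0.036 in reverted array 2 to 0.055 in reverted array 1. The other genes above the median level also stood low in quiescent arrays 1 and 2, at -0.057 and -0.055, but lay at 0.015 in reverted array 2 and between -0.001 and 0.029 in the remaining arrays. The 75th percentile of all probe sets was 9.79 and 9.80 in quiescent arrays 1 and 2 and between 9.85 and 9.90 in the other arrays. The part of this array-wide difference in the subunit values was not tested. Mean hepatocyte marker levels did not follow the same order: they were 8.59, 9.27, 8.89 and 8.35 in the quiescent and 9.45, 9.02, 9.17 and 9.27 in the reverted arrays.

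**Figure D2:**
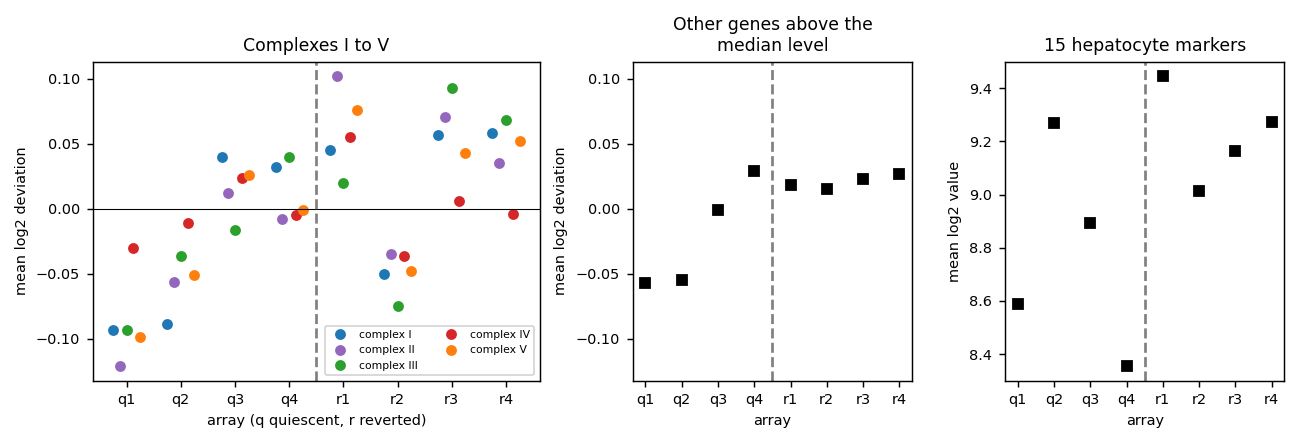
Left, mean log2 deviation of the members of each complex from their own 8-array means, by array; middle, the same for 9894 other genes above the median level; right, mean log2 value of 15 hepatocyte markers. Quiescent arrays 1 and 2 and reverted array 2 stand low in complexes I, II, III and V, and in the middle panel the first 2 of these arrays do.

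**Figure D3:**
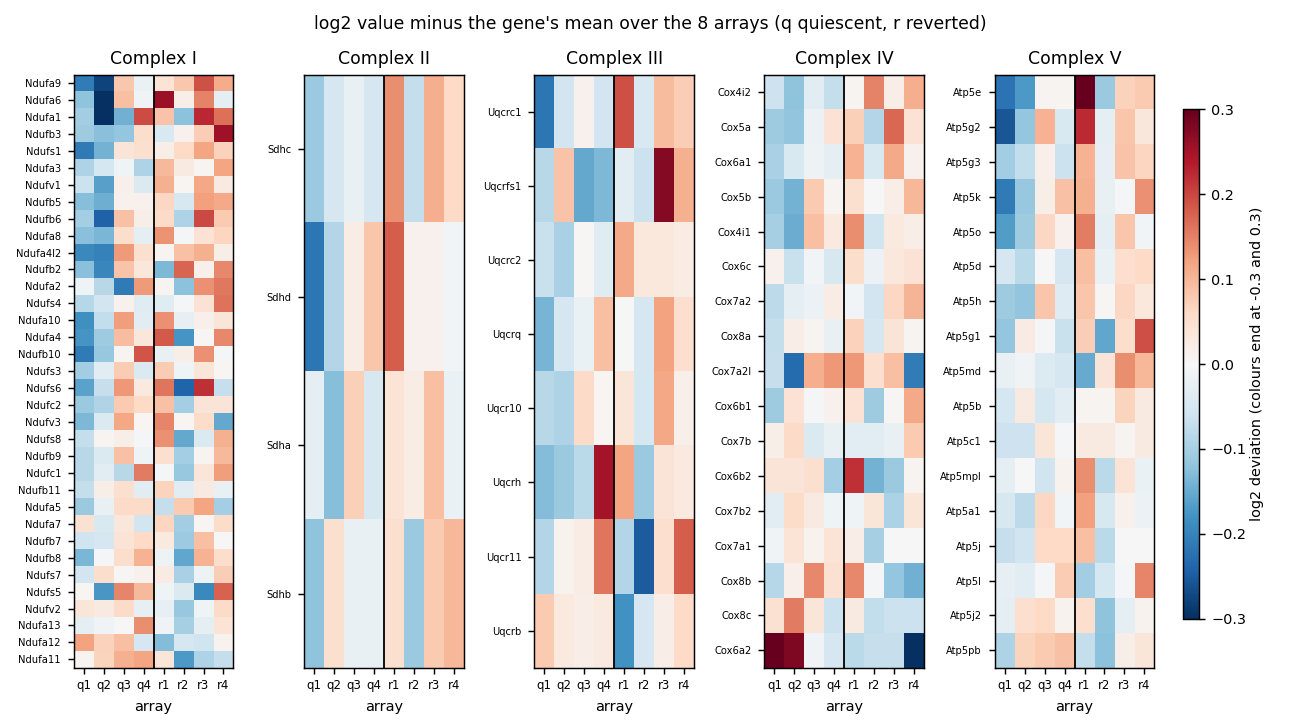
Log2 value of each subunit gene minus its mean over the 8 arrays, by complex, with genes ordered by their change and colours ending at -0.3 and 0.3. Columns q1, q2 and r2 are mostly blue in complexes I and V, whereas Cox6a2, at the bottom of complex IV, is red in q1 and q2 (9.42 and 9.38) and blue in r4 (8.78).

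In complex I, the NADH dehydrogenase, 0 of 35 members were called. The 6 nuclear core subunits analysed, which carry the flavin and the iron-sulfur clusters, had log2 changes from -0.05 to 0.13, with 4 higher and 2 lower (5 and 1 after centring, 3 and 3 with the hepatocyte covariate). Ndufv1, the subunit that binds NADH and flavin, had log2 values of 10.92, 10.82, 11.00 and 10.94 in the quiescent and 11.09, 10.99, 11.10 and 11.01 in the reverted arrays. Reverted array 2 lay just below quiescent array 3, so the groups overlapped, and the log2 change was 0.13 (SE 0.05, adjusted p = 0.266). The other core subunits were Ndufs1 (0.13, adjusted p = 0.335), Ndufs3 (0.05), Ndufs8 (0.03), Ndufv2 (-0.05) and Ndufs7 (-0.01), which holds the cluster that reduces ubiquinone. Quiescent arrays had a mean of 12.88 ± 0.05 for Ndufs7 and reverted arrays one of 12.87 ± 0.07 (SD, n = 4), and its 95% interval ran from 0.925-fold to 1.07-fold.

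The other 29 members of complex I are mostly accessory subunits, which surround the core and stabilise it. Of these, 24 had a higher mean and 5 a lower one. Ndufa3 had the smallest p, with log2 values of 10.77, 10.81, 10.85 and 10.77 in the quiescent and 10.96, 10.89, 10.87 and 10.98 in the reverted arrays. Every reverted array lay above every quiescent array, by 0.13 in the mean (SE 0.04, adjusted p = 0.193). Ndufa9, at the junction of the 2 arms of the complex, had the highest log2 change of all members at 0.22 (SE 0.08, adjusted p = 0.234). Its values were 10.33, 10.26, 10.62 and 10.52 against 10.58, 10.62, 10.73 and 10.65. Quiescent arrays 1 and 2 were the low ones here, and quiescent array 3 lay within the reverted range. Ndufa11, a subunit of the membrane arm, went the other way with 10.88, 10.94, 10.98 and 10.99 in the quiescent and 10.91, 10.70, 10.78 and 10.80 in the reverted arrays. Only reverted array 1 reached into the quiescent range, and the log2 change was -0.15 (SE 0.05, adjusted p = 0.215). A second probe set of Ndufa11 gave -0.07.

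In complex II, succinate dehydrogenase, which also works in the citric acid cycle, all 4 genes were measured and 0 were called. Sdhc, a membrane anchor, had 11.02, 11.08, 11.11 and 11.08 in the quiescent and 11.27, 11.06, 11.24 and 11.19 in the reverted arrays. Reverted array 2 lay inside the quiescent range and the other 3 lay above it, and the change was 0.12 (SE 0.05, adjusted p = 0.296). Sdhd, the partner anchor, had a mean difference of 0.10 (SE 0.07, adjusted p = 0.507), with overlapping groups. The catalytic flavoprotein Sdha stood at 11.74 ± 0.08 and 11.81 ± 0.05 (SD, n = 4), and the iron-sulfur subunit Sdhb at 10.16 ± 0.07 and 10.22 ± 0.09. Their adjusted p values were 0.505 and 0.61. The highest upper bound in this complex was 1.20-fold, for Sdhd.

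In complex III, the cytochrome bc1 complex, 0 of 8 members were called, and the structural core and the Rieske protein had the 3 highest log2 changes. Uqcrc1, a core protein, had 10.87, 11.03, 11.10 and 11.03 in the quiescent and 11.28, 11.04, 11.18 and 11.16 in the reverted arrays. Reverted array 2 lay within the quiescent range, and the change was 0.16 on the log2 scale (SE 0.06, adjusted p = 0.282). Uqcrc2, the other core protein, had 11.89, 11.86, 11.96 and 11.92 against 12.07, 11.99, 11.99 and 11.98. Its groups did not overlap, but reverted array 4 and quiescent array 3 were close, and the log2 change of 0.10 (SE 0.04) had an adjusted p of 0.286. Uqcrfs1, the Rieske iron-sulfur protein, had a mean difference of 0.14 (SE 0.08, adjusted p = 0.415), with reverted array 3 highest at 9.28 and quiescent array 2 at 9.09. The 5 accessory members had log2 changes between -0.08 and 0.06. Uqcrb, the accessory subunit near the quinone site, was lower at -0.08 (SE 0.05, adjusted p = 0.504), and reverted array 1 held its lowest value, 12.32.

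Complex IV, cytochrome c oxidase, is the complex whose subunits most often exist in alternative forms, of which 1 is made in most tissues and another in muscle, lung or testis. The 10 members other than these restricted forms had log2 changes from -0.004 to 0.10, with 9 higher, and 0 had an unadjusted p under 0.05. They include Cox5a (0.10) and Cox5b (0.08), Cox6a1 (0.09, SE 0.05, adjusted p = 0.357), and Cox6c, at 13.46 ± 0.04 and 13.51 ± 0.03 (SD, n = 4). Of the 8 restricted isoforms, counting the Ndufa4 paralog Ndufa4l2, 2 had a higher and 6 a lower mean, with a median log2 change of -0.03; after quantile normalization or median centring Cox6b2 and Cox7b2 turned positive and the count was 4 and 4. Cox6b2, Cox7a1, Cox7b2, Cox8b and Cox8c lay below the median level of all genes, where a change may be understated, and no measure of background was used to decide whether they were present.

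Cox4i2, the form of subunit 4 known from lung and from hypoxic cells, had the lowest adjusted p of all members. Its log2 values were 9.49, 9.43, 9.52 and 9.48 in the quiescent and 9.56, 9.70, 9.57 and 9.66 in the reverted arrays. All 4 reverted arrays lay above all 4 quiescent arrays, a 1.10-fold difference with a 95% interval from 1.03-fold to 1.18-fold (log2 change 0.14, SE 0.04, adjusted p = 0.188). Cox6a2, the heart and skeletal muscle form of subunit 6a, had the lowest log2 change of all members at -0.27 (SE 0.10, adjusted p = 0.236). Its values were 9.42, 9.38, 9.09 and 9.05 in the quiescent and 9.02, 9.03, 9.03 and 8.78 in the reverted arrays. The groups did not overlap, but quiescent arrays 3 and 4 lay close to 3 of the reverted arrays. Quiescent arrays 1 and 2, low for most subunits, were the high ones for Cox6a2. Cox8c, a testis form, was at 7.65 ± 0.09 and 7.56 ± 0.05 (SD, n = 4, adjusted p = 0.42).

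Whether a restricted form changed relative to its common partner was tested on the log2 difference of the pair within each array, in 7 pairs, with an exact 2-sided permutation test over the 70 assignments of arrays. A difference of this kind shows unequal change of the probe sets and says nothing on which form is more abundant. The smallest p that 4 against 4 arrays can give is 0.0286, and on the deposited values no pair reached it. Adjusted over 7 pairs, a lone pair at this smallest p is given 0.2. The adjusted p therefore could not fall under 0.05 for a pair that changed alone, and it decides nothing on such a pair. For Cox6a2 against Cox6a1 the difference was -1.724, -1.818, -2.144 and -2.17 in the quiescent and -2.335, -2.167, -2.337 and -2.479 in the reverted arrays. The change of the mean was -0.37, with 1 reverted array just inside the quiescent range (exact p = 0.0571, adjusted over the 7 pairs 0.2). After quantile normalization the groups separated for this pair (change -0.377, exact p = 0.0286, adjusted 0.2). Cox7a1, the muscle form of subunit 7a, against Cox7a2 gave -3.65 ± 0.02 in quiescent and -3.745 ± 0.052 in reverted cells (SD, n = 4, exact p = 0.0571, adjusted 0.2), a change of -0.09 that became -0.021 after quantile normalization (exact p = 0.486). Cox4i2 against Cox4i1 had a difference of 0.08 (exact p = 0.4, adjusted 0.7), and Cox4i1 itself had a positive log2 change of 0.06. Cox8b against Cox8a had a difference of -0.10 (exact p = 0.257, adjusted 0.6).

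The remaining pairs had smaller differences. Cox6b2 against Cox6b1 stood at a change of -0.04, Cox7b2 against Cox7b by -0.01 and Ndufa4l2 against Ndufa4 by 0.03, with exact p between 0.66 and 0.83. The common partners had log2 changes from -0.004 (Cox7b) through 0.03 (Cox6b1 and Cox8a), 0.05 (Cox7a2), 0.06 (Cox4i1) and 0.08 (Ndufa4) to 0.09 (Cox6a1). Ndufa4 was first described in complex I and is now placed with complex IV, and Ndufa4l2 is its hypoxia-inducible relative. Ndufa4l2 had 9.27, 9.26, 9.59 and 9.51 in the quiescent and 9.47, 9.55, 9.57 and 9.48 in the reverted arrays. Its reverted values all lay inside the quiescent range, and the change was 0.11 (SE 0.08, adjusted p = 0.504). Without Ndufa4, Ndufa4l2 and the supercomplex factor Cox7a2l, 59 of 78 members had a higher mean and 0 were called.

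**Figure D4:**
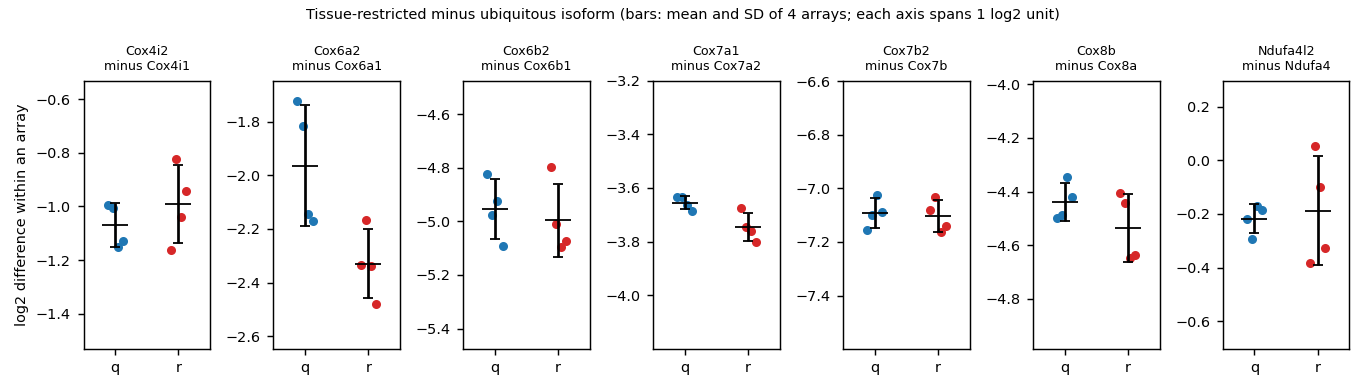
Log2 value of the restricted minus the common isoform within each array, for 7 pairs, in quiescent (q, blue) and reverted (r, red) arrays; bars give the mean and SD of 4 arrays, and each vertical axis spans 1 log2 unit. The reverted points for Cox6a2 minus Cox6a1 lie low, with means of -1.96 and -2.33, and those of the other pairs are closer together.

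In complex V, the ATP synthase, 0 of 17 members were called and no member had separate groups. The F1 part holds the head, where ATP is made, and the central stalk. Its 5 members had a higher mean here and under both other scalings, with log2 changes from 0.04 to 0.19. The catalytic beta subunit Atp5b had 13.28, 13.36, 13.28 and 13.30 in the quiescent and 13.34, 13.34, 13.40 and 13.36 in the reverted arrays. The groups overlapped, with SDs of 0.04 and 0.03, and the change was 0.05 (SE 0.04, adjusted p = 0.485). Atp5d, the delta subunit of the central stalk, had a mean difference of 0.09 (SE 0.04, adjusted p = 0.299), and Atp5e, the epsilon subunit, one of 0.19 (SE 0.09, adjusted p = 0.353). For Atp5e, reverted array 1 was high at 9.41 and reverted array 2 at 8.96 lay inside the quiescent range of 8.85 to 9.08.

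The 3 genes of the c ring, which encode the same mature rotor protein with different import sequences, had log2 changes of 0.08 (Atp5g1), 0.16 (Atp5g2) and 0.11 (Atp5g3). Atp5g3 had 11.40, 11.43, 11.52 and 11.44 in the quiescent and 11.61, 11.48, 11.59 and 11.57 in the reverted arrays, and the smallest p of the complex (SE 0.04, adjusted p = 0.259). Reverted array 2 lay below quiescent array 3, and the other 3 reverted arrays lay above the quiescent range. Atp5g2 overlapped more widely (SE 0.08, adjusted p = 0.376), and its 3 probe sets gave log2 changes of 0.15 to 0.16. The peripheral stalk had 3 members higher and 1 lower (2 and 2 after quantile normalization), the lower one being the b subunit Atp5pb (-0.07, adjusted p = 0.525), of which a second probe set gave 0.015.

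Short subunit genes have many processed pseudogenes, and 16 of the 81 members were represented by several probe sets. The direction was the same in all probe sets of 13 of these genes and differed in 3, namely Atp5l, Atp5pb and Ndufc1, where the probe sets gave changes from -0.07 to 0.03. The widest gap between probe sets of 1 gene was 0.13 on the log2 scale, for Cox7a2l. Signal from near-identical copies cannot be told apart from that of the named gene. Cox7c, Ndufb4 and Ndufb4b were reached only by probe sets that carry several symbols. The 13 subunits encoded by mitochondrial DNA are not analysed here.

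In the other mitochondrial gene lists no gene was called either. Among 40 assembly factors, which build the complexes, 0 rose and 0 fell, 34 had a higher mean and the median log2 change was 0.08. Bcs1l, the chaperone that inserts the Rieske protein into complex III, was at 9.57 ± 0.14 and 9.92 ± 0.06 (SD, n = 4), with separate groups and a change of 0.35 (SE 0.07, adjusted p = 0.0632). After quantile normalization its adjusted p was 0.0454, with array weights 0.029 and without quiescent array 4 0.0406. Under the other alternatives, among them centring on array medians and the hepatocyte covariate, Bcs1l was not called. In 7 of the 40 factors every reverted array lay above every quiescent array (background 4.64%). This also held for 8 of 77 mitochondrial ribosomal proteins, 2 of 22 carriers, 1 of 16 citric acid cycle genes and 0 of 17 biogenesis regulators. The reverse held for 1 ribosomal protein and 1 regulator. The mean deviation of the assembly factors, at most 0.019 in quiescent and at least 0.025 in reverted arrays, narrowly did not overlap between the groups. In the other lists it overlapped. Ecsit, a complex I assembly factor, had a log2 change of 0.19 (adjusted p = 0.12), also with separate groups. Of 22 carriers and exchangers 18 had a higher mean and 0 were called. Among them Atpif1, the inhibitor of ATP synthase hydrolysis, had a log2 change of 0.15 (adjusted p = 0.217) and the outer membrane channel Vdac2 one of 0.13 (adjusted p = 0.256).

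In the citric acid cycle list 15 of 16 genes had a higher mean and 0 were called, with the fumarase gene Fh1 at 0.20 (adjusted p = 0.179) and the succinyltransferase Dlst at 0.10 (adjusted p = 0.213). The list of biogenesis and transcription regulators had 13 of 17 higher and 0 called, with the transcription factors of mitochondrial DNA Tfb2m at 0.15 (adjusted p = 0.276) and Tfam at 0.20 (adjusted p = 0.348). Of 77 mitochondrial ribosomal proteins 62 had a higher mean and 0 were called, with a median of 0.10. The smallest p was found for Mrpl20 (0.22, adjusted p = 0.084) and Mrps25 (0.25, adjusted p = 0.0928). With array weights, and under no other alternative, Mrps25 was called (adjusted p = 0.0401 in limma). Under quantile normalization and centring the counts higher ran from 30 to 38 for assembly factors, 16 to 19 for carriers, 13 to 15 for the citric acid cycle, 12 to 14 for regulators and 50 to 66 for ribosomal proteins. Quiescent arrays 1 and 2 were the lowest arrays in each of these 5 lists as well. The mean deviation of reverted array 2 was -0.016 for ribosomal proteins and -0.009 for carriers, the lowest reverted value in both, and 0.026 for assembly factors, 0.009 for the citric acid cycle and 0.05 for regulators, against -0.048 for the subunits.

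**Figure D5:**
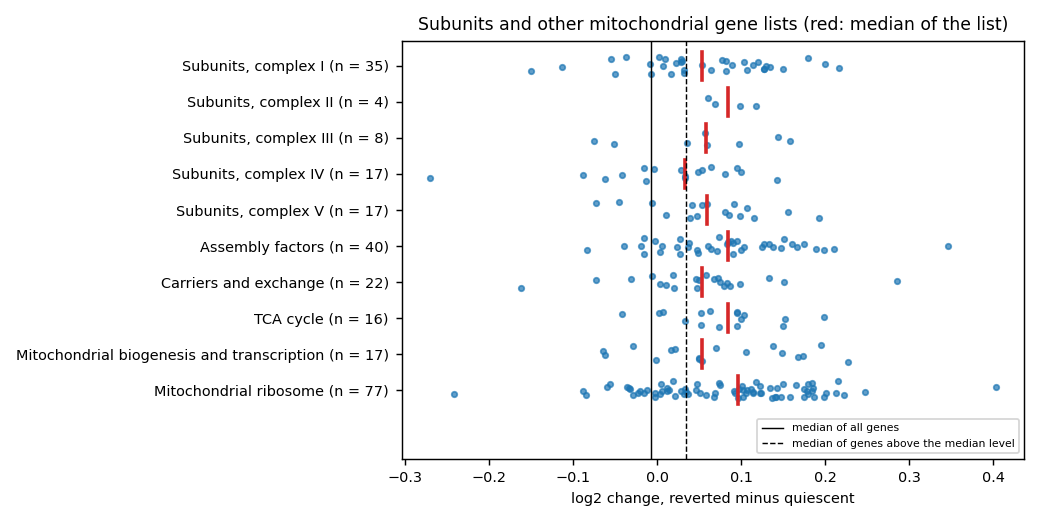
Log2 change (reverted minus quiescent) of each gene in the 5 complexes and in 5 other mitochondrial gene lists, 1 point per gene, with the list median in red. The list medians lie between 0.03 and 0.10, beside medians of -0.01 for all genes (solid line) and 0.03 for genes above the median level (dashed line).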

How the data were processed

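The deposited values are log2 expression values made by the authors with RMA, per the submitters' processing notes, from 150 ng of RNA, amplified and hybridised to whole-transcript arrays. RMA's settings, like the build, are not given in the sources used here. There were 35556 probe sets on 8 arrays, and 0 columns had no sample. The platform annotation gives 21789 probe sets 1 symbol, 1621 several and 12146 none. A gene was represented by its brightest probe set (by the 8-array mean), with no filter on level. Groups were compared with limma 3.58.1 in R 4.3.3 (lmFit, eBayes, 2-sided, no covariate, Benjamini-Hochberg over 19938 genes), called at an adjusted p under 0.05. Exact permutation tests and tables used Python 3.11.15. The limma fit was also tested on simulated data. Depth is not defined for arrays, and their number limits the precision.

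The members and lists were chosen with earlier results of these data known. Named with values are, per complex, the 4 members with the smallest p and the one with the highest level, both genes of each isoform pair, and in each pathway list the 2 genes with the smallest p. A few other members are named from ranges after their values were seen, and so are the markers Clec4g, Lyz2 and Cd3e. Alternatives were quantile normalization, median centring, leaving out the lowest 25% or lower 50% of genes, the mean of a gene's probe sets, array weights, robust variances with an intensity trend, the replicate number as a block, hepatocyte or immediate early gene marker means as covariates, and leaving out each array. Same-numbered arrays did not deviate together (0 of 4 correlations above 0.1), so the numbers were not taken as pairs.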

Additional observations from a re-analysis of the deposited data

Results flagged for a closer look

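Of 92 groups of 4 arrays checked for an array far from the rest of its group, 8 held one. Chance gives about 1 in 20. Reverted array 4 stood apart for Cox6a2, at a log2 level of 8.78 against 9.02 to 9.03 in the other reverted arrays, and for Cox7b, at 13.04 against 12.93 to 12.94. Reverted array 1 stood apart for Sdhd (10.31 against 10.12 to 10.14), Uqcrc2 (12.07 against 11.98 to 11.99) and Cox8c (7.63 against 7.53 to 7.54). Reverted array 2 was low for Cox7a1 (7.05 against 7.15 to 7.17) and for the mean deviation of complex I (-0.05 against 0.05 to 0.06). Quiescent array 4 was low for Cox6b2, at 6.97 against 7.11 to 7.12.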

How the results depend on the processing

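The count of members called was 0 under every alternative run, with a lowest adjusted p of 0.109 in limma (Ndufa9, array weights). Members at an unadjusted p under 0.05 numbered 12 (14.8%, against 16.0% of all genes). They numbered 4 without quiescent array 1 or reverted array 3 (4.94%, against 11.4%) and without quiescent array 2 (4.94%, against 11.6%). They numbered 7 without reverted array 1 (8.64%, against 17.9%) or reverted array 4 (8.64%, against 11.4%). Without reverted array 2 there were 17 (21.0%, against 13.5%), and without quiescent array 3 there were 19 (23.5%, against 16.0%). With array weights there were 19 (23.5%, against 22.8%). Quantile normalization gave 6 (7.41%, against 13.7%) and mean hepatocyte marker level as covariate 8 (9.88%, against 21.1%). Leaving out the lowest 25% of genes also gave 8, a share below the 17.6% of all genes kept. Over both directions the members' share lay above that of all genes only with array weights, without quiescent array 3 and without reverted array 2. The count over all genes, 142, became 306 with array weights, 63 with the replicate block and 48 with the hepatocyte covariate. Leaving out 1 array gave 54 (reverted array 4) to 247 (quiescent array 4), with 59 without reverted array 3 and 73 without quiescent array 1. The replicate block changed no call of a member. With the hepatocyte covariate 55 of 81 members had a higher mean, and the median log2 change of complex IV was -0.008. Signs turned for a few values close to 0. Quantile normalization gave 0.004 for Cox6b2 against Cox6b1, 0.015 for Cox7b2 against Cox7b, 0.017 for Cox6b2 and 0.005 for Cox7b2. Centring gave 0.007 for Cox6b2, 0.017 for Cox7b, 0.005 for Cox7b2 and 0.012 for Ndufs7. The hepatocyte covariate gave -0.027 for Cox6b1, -0.008 for Cox8a and -0.007 for Sdhb. Without 1 array, Cox6b2 against Cox6b1 ranged from -0.107 to 0.002, Cox7b2 against Cox7b from -0.036 to 0.011 and Ndufa4l2 against Ndufa4 from -0.051 to 0.094, and single genes from -0.005 to 0.069 (Cox6b1), -0.089 to 0.032 (Cox6b2), -0.03 to 0.015 (Cox7b), -0.031 to 0.013 (Cox7b2) and -0.035 to 0.021 (Ndufs7). The cause of these shifts was not tested.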
